A study of Mus musculus with 4 samples.

Results

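The transcripts described here are those of the mitochondrial genome, taken as every gene whose name in the deposited table starts with mt-. There are 37 such genes of 46603 in the table: 13 mRNA, 2 rRNA and 22 tRNA genes. Of these 37, 17 passed the filter on low values (on average 10 or more reads per library), namely all 13 mRNA, both rRNA and 2 of the 22 tRNA genes. The RNA came from heart ventricles of C57Bl6/J mice, 8 to 12 weeks old, given 7 days of daily intraperitoneal injections. The 4 groups were P2Y6-null (KO) mice given isoproterenol at 50 mg/kg/day, wild-type (WT) mice given the same dose, KO mice given saline and WT mice given saline. P2Y6 is a receptor for extracellular nucleotides, and isoproterenol is an agonist of beta-adrenergic receptors used to provoke cardiac hypertrophy. Each group held 1 library, made with a stranded mRNA kit, per the labels' protocols. Whether a library stands for 1 heart or for a pool is not stated, and neither is how the KO allele was made.

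The mitochondrial genome is a small circle of DNA with genes on both strands. Long precursor RNAs are copied from each strand and cut apart, mostly at the tRNAs that lie between the other genes, and most of the mRNAs then receive a poly(A) tail. The 13 mRNAs encode core subunits of respiratory complex I (Nd1 to Nd6 and Nd4l), complex III (Cytb), complex IV (Co1 to Co3) and ATP synthase (Atp6 and Atp8), and the 2 rRNAs belong to the small (Rnr1) and large (Rnr2) subunit of the mitochondrial ribosome. The heart is rich in mitochondria, and in heart tissue these transcripts are a large share of all polyadenylated RNA.

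A stretch of the mitochondrial genome is also present in the nuclear genome, and the counts of several members rest on how reads from such sequence were assigned. In the GENCODE M21 annotation of GRCm38, 7 unprocessed pseudogenes lie side by side on the minus strand of chromosome 1, from 24611535 to 24616197. They follow positions 6381 to 11042 of the mitochondrial chromosome in the same order. The 7 pseudogenes are, in that order, Gm29216, Gm28661, Gm10925, Gm28437, Gm28438, Gm10222 and Gm28439. The spacing between neighbours was the same in both places for 5 of the 6 gaps, and the gap between the mt-Nd3 and mt-Nd4l copies was 74 bases on chromosome 1 and 73 on the mitochondrial chromosome. Laid base by base over the mitochondrial genes, the copies of mt-Co2 (681 bases), mt-Atp6 (678 bases), mt-Co3 (783 bases), mt-Nd4l (294 bases) and mt-Nd4 (876 bases) had 0 substitutions. The copy of mt-Nd3 had 1 in 345 bases, T3C, and the copy of mt-Co1 had 6 in 492 bases, T1056A, C1057T, A1059G, A1060G, C1062A and A1066T. Positions count from 1 at the 5′ end of the mitochondrial gene, whose base comes first. These 3 pairs of 90-base windows are printed because they show how little there is to tell a mitochondrial read from a nuclear one, with capitals at the bases that differ within a pair. All are GRCm38 sequence from the GENCODE transcripts, 5′ to 3′ on the transcribed strand.
mt-Co1, chrM:6381-6470, plus strand: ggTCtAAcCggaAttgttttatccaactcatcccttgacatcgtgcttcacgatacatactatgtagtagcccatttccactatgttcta
Gm29216, chr1:24616108-24616197, minus strand: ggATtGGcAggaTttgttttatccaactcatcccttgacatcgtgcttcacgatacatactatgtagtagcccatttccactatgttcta
mt-Co2, chrM:7308-7397, plus strand: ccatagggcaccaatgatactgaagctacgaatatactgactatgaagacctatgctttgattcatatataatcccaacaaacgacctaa
Gm28661, chr1:24615181-24615270, minus strand: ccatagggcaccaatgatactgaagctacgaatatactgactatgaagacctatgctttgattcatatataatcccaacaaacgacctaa
mt-Nd3, chrM:9459-9548, plus strand: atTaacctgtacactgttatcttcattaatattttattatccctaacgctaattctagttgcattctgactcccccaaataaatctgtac
Gm28438, chr1:24613030-24613119, minus strand: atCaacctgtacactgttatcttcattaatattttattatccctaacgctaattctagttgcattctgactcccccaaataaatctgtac

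Of the 13 mRNA genes, 6 lie wholly inside the copied stretch: mt-Co2, mt-Atp8, mt-Atp6, mt-Co3, mt-Nd3 and mt-Nd4l. Another 2, mt-Co1 and mt-Nd4, lie partly inside, and 5 lie outside. The 6 inside genes were the 6 mRNA genes with the lowest levels in every library, at 1.76 to 82.4 CPM (33 to 2113 reads). The 7 others had 6352 to 115213 CPM (119236 to 2450453 reads), and the ranges did not overlap. CPM gives a gene's reads per 1000000 counted reads in that library. Per kilobase of gene the ranges were 5.92 to 120 CPM inside and 11391 to 74572 CPM for the others. As another measure of shared sequence, every 50-base window of each gene was looked for in annotated nuclear transcripts. All windows of mt-Co2 were found there, 99.9% of mt-Co3, 99.5% of mt-Atp6, 98.8% of mt-Nd4l and 98.0% of mt-Nd3, against 62.2% of mt-Nd4, 51.1% of mt-Co1, 8.19% of mt-Nd2 and 7.61% of mt-Nd5. For mt-Nd1, mt-Nd6, mt-Cytb and mt-Rnr1 it was 0%, and for mt-Rnr2 1.04%. The gene mt-Atp8 also had 0%. Most of it falls in the 233 bases between the copies of mt-Co2 and mt-Atp6, where no pseudogene is annotated. Its last 43 bases overlap mt-Atp6 and thus the copy of that gene, but are shorter than a 50-base window. Reads were counted with HTSeq, per the submitters' processing notes, and its treatment of reads that fit more than 1 place is not given in the sources used here. The levels of these 6 genes are therefore uncertain as measures of mitochondrial RNA, and they are kept apart in what follows.

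**Figure D1:**
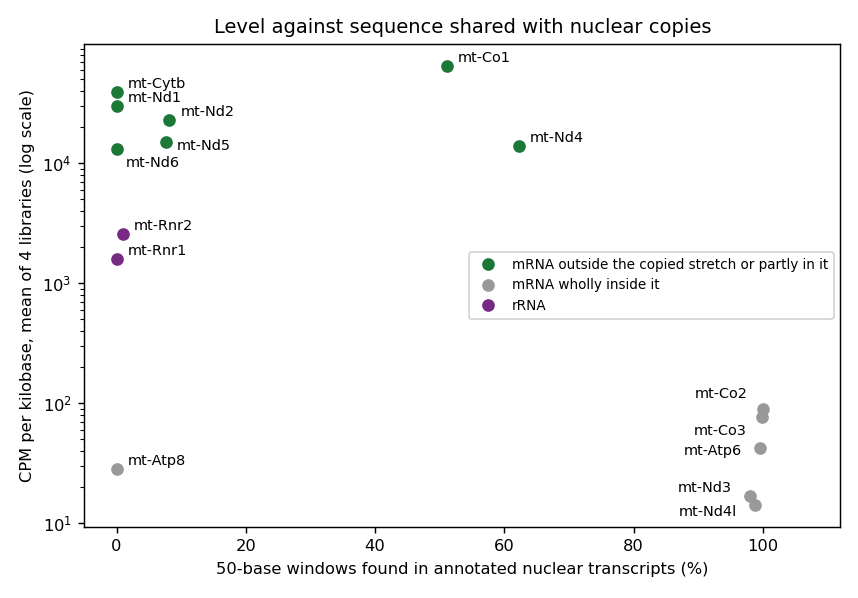
Level of each mitochondrial mRNA and rRNA gene (CPM per kilobase, mean of the 4 libraries, log axis) against the percentage of its 50-base windows found in annotated nuclear transcripts. The 6 mRNA genes wholly inside the stretch copied on chromosome 1 (grey) lie below all others. Among them mt-Atp8, at 0%, lies mostly where no pseudogene is annotated.

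The libraries held 18771198 (KO, isoproterenol), 20721472 (WT, isoproterenol), 22965087 (KO, saline) and 25637369 (WT, saline) reads in the listed genes. The targeted gene, P2ry6, had 10 reads in the KO isoproterenol library, 122 in WT isoproterenol, 13 in KO saline and 131 in WT saline, so that the genotype labels fit its level. Ratios between libraries are ratios of reads scaled by TMM, with a 95% counting interval. A gene is called higher or lower where its whole interval lies beyond 1.5-fold, among the 14301 genes that passed the filter. Since no group had a replicate, no p-value was computed between libraries. The intervals compare these libraries, not the conditions, and hold counting error alone. Because the members have so many reads, their intervals are narrow and small ratios lie clear of 1.

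Mitochondrial transcripts took 22.5% of all reads in the KO isoproterenol library, 28.9% in WT isoproterenol, 26.3% in KO saline and 24.9% in WT saline. The KO isoproterenol library had the lowest share and the WT isoproterenol library the highest, with both saline libraries between them. In every library 6 of the 10 genes with the most reads were mitochondrial. The mRNA genes made up nearly all of this, with 22.1%, 28.4%, 25.6% and 24.1% of reads in the same order of libraries. The rRNA genes took 0.389% and 0.450% of reads in the isoproterenol libraries of KO and WT, and 0.677% and 0.733% in their saline libraries, so that both isoproterenol libraries lay below both saline libraries. The tRNA genes took 0.0184% to 0.0216%. The kit selects poly(A) RNA, and mitochondrial rRNA carries only short tails, so these shares are of captured rRNA and not of all rRNA in the tissue.

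By level per kilobase, mt-Co1, the catalytic subunit of complex IV, came first in each library, with 56637 CPM per kilobase in KO isoproterenol, 74572 in WT isoproterenol, 65262 in KO saline and 61865 in WT saline. Next was mt-Cytb, the only mitochondrial subunit of complex III, with 35678, 44848, 39718 and 36223 CPM per kilobase in the same order. The complex I subunits mt-Nd1, with 26230 to 32043, and mt-Nd2, with 21154 to 25621, followed in every library. The 3 remaining genes were close together. In KO isoproterenol mt-Nd4 had 13403, mt-Nd6 12239 and mt-Nd5 11391 CPM per kilobase, whereas in the 3 other libraries mt-Nd5 stood above them with 16846 (WT isoproterenol), 16445 (KO saline) and 15039 (WT saline). So the KO isoproterenol library was the one in which mt-Nd5 ranked last of the 7. Totals per gene do not show how many reads of mt-Co1 and mt-Nd4 came from the part without a nuclear copy. With all reads of the gene set over that part alone, mt-Co1 had 119705 to 157610 CPM per kilobase and mt-Nd4 35978 to 43403. These values hold only if no counted read came from the shared part. mt-Nd6 is encoded on the strand opposite to mt-Nd5, and their ends overlap by 14 bases. Other overlaps were 43 bases between mt-Atp8 and mt-Atp6, which share a bicistronic mRNA, and 7 bases between mt-Nd4l and mt-Nd4, which share another. How HTSeq was set for strand and for overlapping genes is not given in the sources used here.

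**Figure D2:**
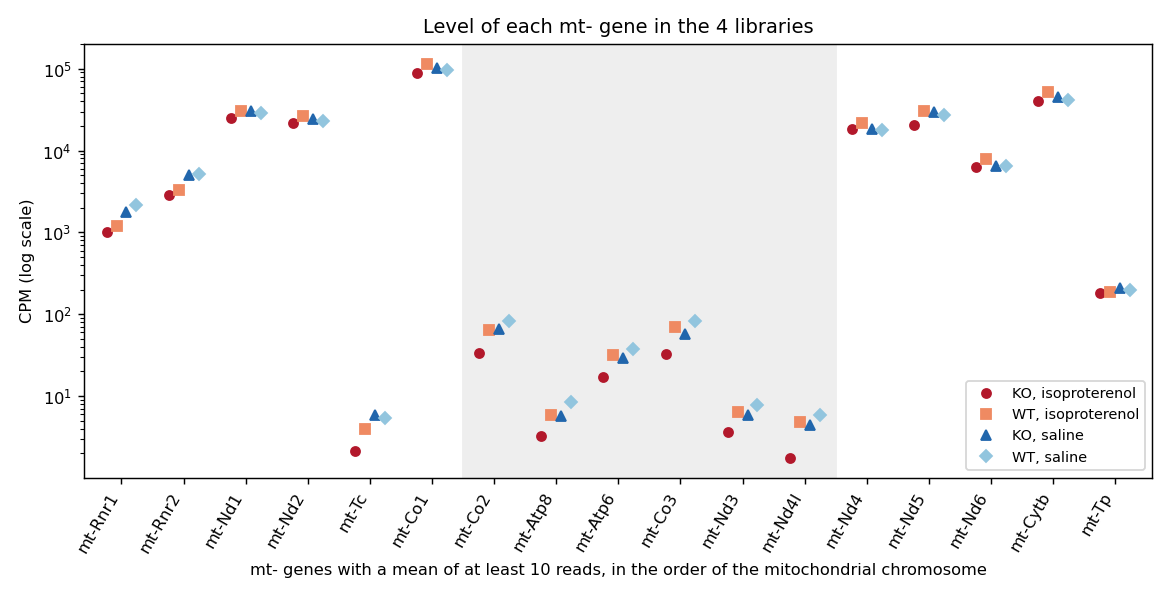
Level (CPM, log axis) of the 17 mitochondrial genes that passed the filter, in the order of the mitochondrial chromosome, with 1 point per library. The 6 genes wholly inside the copied stretch (shaded) lie at 1.76 to 82.4 CPM, the 7 other mRNA genes at 6352 to 115213 CPM, and both rRNA genes are lower in the isoproterenol libraries than in the saline libraries.

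The first comparison asked how mitochondrial transcripts of KO ventricles stood after isoproterenol. The 7 mRNA genes not wholly inside the copied stretch were all lower in the KO isoproterenol library than in the KO saline library, with a median log2 ratio of -0.35 and a range of -0.71 to -0.18, although mt-Nd4 reached 0.00 with total-count scaling. Only mt-Nd5 passed the 1.5-fold rule, and with total-count scaling it lost that call, at a log2 ratio of -0.53. It encodes a subunit of the proton-pumping arm of complex I and had 20777 CPM in KO isoproterenol and 29995 CPM in KO saline. mt-Nd5 fell by 1.64-fold (1.63 to 1.64). The smallest ratio was that of mt-Nd4, another subunit of that arm, with 18469 CPM in KO isoproterenol and 18417 CPM in KO saline. Its scaled ratio was 1.13-fold lower (1.13 to 1.14). mt-Co1 had 87504 CPM in KO isoproterenol and 100830 CPM in KO saline, 1.31-fold lower (1.30 to 1.31), and mt-Cytb had 40816 and 45437 CPM in these libraries, 1.26-fold lower (1.26 to 1.27). Neither passed the rule. Including rRNA, tRNA and the uncertain genes, 8 of the 17 members that passed the filter were called lower and 0 higher. Of all genes tested, 4.22% were called lower and 7.09% higher. The interval lay below 1 for all 17 members, and over all genes it lay below 1 for 27.6% and above 1 for 27.2%. In bulk tissue, fewer cardiomyocytes and less mitochondrial RNA per cell cannot be told apart.

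In WT ventricles the same 7 mRNA genes were all higher in the isoproterenol library than in the saline library, with a median log2 ratio of 0.35 and a range of 0.15 to 0.39. None passed the 1.5-fold rule. The highest ratio was that of mt-Cytb, with 51306 CPM in WT isoproterenol and 41439 CPM in WT saline, 1.31-fold (1.30 to 1.31). mt-Co1 had 115213 CPM in WT isoproterenol and 95581 CPM in WT saline, 1.27-fold higher (1.27 to 1.28). The lowest was that of mt-Nd1, a subunit near the quinone site of complex I, with 30665 CPM in WT isoproterenol and 29151 CPM in WT saline, 1.11-fold higher (1.11 to 1.12). mt-Nd5 stood at 30727 CPM in WT isoproterenol and 27430 CPM in WT saline, 1.18-fold higher (1.18 to 1.19). Of the 17 members, 1 was called lower, the rRNA mt-Rnr1, and 0 higher, against 0.797% lower and 0.86% higher of all genes tested. With total-count scaling the median of the 7 genes stayed above 0, at 0.27 in WT, and below 0, at -0.16 in KO.

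**Figure D3:**
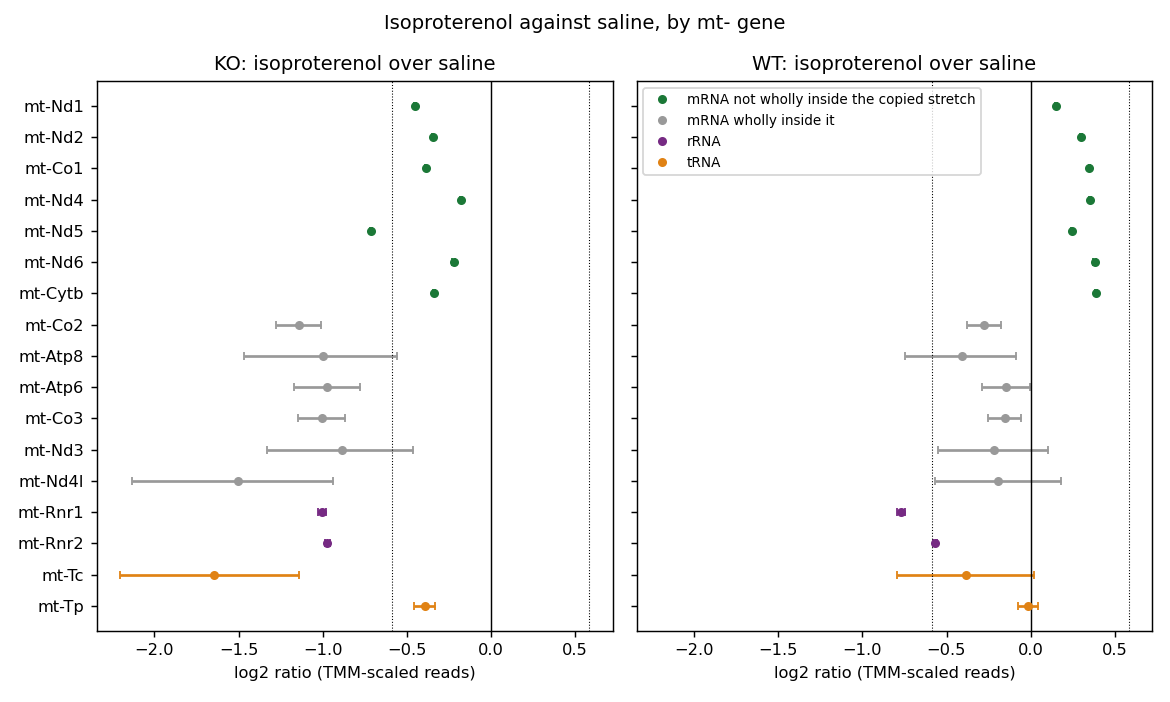
Log2 ratio of isoproterenol over saline for each of the 17 mitochondrial genes, in KO (left) and WT (right), with 95% counting intervals and dotted lines at 1.5-fold. The 7 mRNA genes not wholly inside the copied stretch lie left of 0 in KO and right of 0 in WT; with total-count scaling mt-Nd4 moves to 0.00 in KO and the other 6 keep their sides.

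The difference of these responses, KO minus WT on the log2 scale, was below 0 for all 17 members, or for all but mt-Rnr1 with total-count scaling, and 11 were called lower and 0 higher. Over all genes tested 1.73% were called lower and 3.83% higher. For the 7 mRNA genes the median difference was -0.65 and the range -0.96 to -0.53. mt-Nd5 had the largest difference among them, at -0.96 (-0.96 to -0.95), followed by mt-Co1 at -0.74, mt-Cytb at -0.72, mt-Nd2 at -0.65, mt-Nd1 at -0.61 and mt-Nd6 at -0.60. mt-Nd4, at -0.53, was the only one of the 7 that was not called. This count rests on the scaling. Total-count scaling moved the median of all tested genes by 0.26 in the difference, by 0.18 in the KO pair and by 0.21 between the isoproterenol libraries, and left mt-Nd5 as the 1 member called lower in the difference. A change of scaling shifts every gene by the same amount, so where the members stand relative to the median gene cannot differ between scalings. The median difference of the 7 genes stayed below 0 with total-count scaling, at -0.39.

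Set side by side within a treatment, the KO and WT libraries differed mainly after isoproterenol. These ratios share libraries with those above and are not independent of them. Between the isoproterenol libraries, KO against WT, the 7 mRNA genes had a median log2 ratio of -0.52 and a range of -0.78 to -0.45. mt-Nd5 was 1.71-fold lower (1.71 to 1.72) and mt-Co1 1.53-fold lower (1.52 to 1.53) in KO, and both were called. mt-Cytb lay just short of the rule at 1.46-fold lower (1.45 to 1.46). In all, 8 of the 17 members were called lower and 0 higher, against 1.8% lower and 4.2% higher of all genes tested. With total-count scaling the 4 still called were mt-Co2, mt-Co3, mt-Atp6 and mt-Nd4l, all uncertain for their nuclear copies. Between the saline libraries, KO against WT, 0 of the 17 members were called, against 0.217% lower and 0.273% higher of all genes tested. The 7 mRNA genes had a median of 0.13 there, with mt-Cytb highest at 45437 CPM in KO saline and 41439 CPM in WT saline, a log2 ratio of 0.18, and mt-Nd4 lowest at 18417 and 18061 CPM, a log2 ratio of 0.08.

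The rRNA genes did not follow the mRNA genes. mt-Rnr1 (ENSMUSG00000064337, chromosome M, 70 to 1024), the 12S rRNA of the small ribosomal subunit, had 1007 CPM in KO isoproterenol, 1185 in WT isoproterenol, 1780 in KO saline and 2135 in WT saline. mt-Rnr2 (ENSMUSG00000064339, chromosome M, 1094 to 2675), the 16S rRNA of the large subunit, had 2886, 3314, 4988 and 5199 CPM in the same order. Both isoproterenol libraries lay below both saline libraries for each rRNA. The share of all genes tested with this order was not counted, so the order alone does not set these genes apart. In KO mt-Rnr1 fell by 2.01-fold (1.97 to 2.04) and mt-Rnr2 by 1.96-fold (1.94 to 1.98). In WT mt-Rnr1 fell by 1.71-fold (1.68 to 1.73). mt-Rnr2, at a log2 ratio of -0.57 (-0.58 to -0.56), ended just short of the rule and passed it with total-count scaling, at a log2 ratio of -0.65. The difference between these responses was -0.23 (-0.27 to -0.20) for mt-Rnr1 and -0.40 (-0.42 to -0.38) for mt-Rnr2, and neither was called. With total-count scaling the difference was 0.03 for mt-Rnr1, on the other side of 0.

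An additive fit of treatment and genotype over the 4 libraries (limma on log2(CPM + 1), 1 residual degree of freedom, Benjamini-Hochberg adjustment over 14301 genes) was the 1 test the design allowed. By treatment it called 368 genes, or 2.57% of those tested, and 1 of the 17 members, mt-Rnr1, at a log2 difference of -0.84 (SE 0.196) and a limma adjusted p of 0.024. It was lower in both isoproterenol libraries. The call depended on the method. With recovered reads, the quasi-likelihood test of edgeR gave mt-Rnr1 an adjusted p of 0.254 and limma on TMM-scaled CPM one of 0.319, while DESeq2 gave 0.00437. mt-Rnr2 had a log2 difference of -0.72 (SE 0.243) and a limma adjusted p of 0.147. By genotype the fit called 14 genes, or 0.0979%, and 0 of the 17 members, and likewise 0 members by edgeR and 0 by DESeq2. An unadjusted limma p under 0.05 by genotype was reached by 5 members and by 586 of the 14301 genes. By treatment it was reached by 8 members and by 1865 genes. The 7 mRNA genes had treatment differences of -0.18 to 0.14 in this fit. Since it has no interaction term, opposite responses in KO and WT enter its residual.

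Ratios between members within a library do not depend on the scaling between libraries. They are ratios of captured RNA, since the kit selects poly(A) RNA and not every mitochondrial mRNA receives a tail. There were 1.76 rRNA reads per 100 reads of the 7 mRNA genes in KO isoproterenol (95% counting interval 1.75 to 1.77), 1.58 in WT isoproterenol (1.57 to 1.59), 2.64 in KO saline (2.63 to 2.66) and 3.04 in WT saline (3.03 to 3.06). Both isoproterenol libraries were thus below both saline libraries, and in isoproterenol KO was above WT while in saline it was below. For mt-Nd5 per 100 reads of mt-Cytb the values were 50.9 in KO isoproterenol, 59.9 in WT isoproterenol, 66.0 in KO saline and 66.2 in WT saline. The saline libraries were nearly equal in this ratio, and the KO isoproterenol library was farthest from them. The neighbours mt-Nd4 and mt-Nd5, both encoded on the same strand with 3 tRNA genes between them, stood at 88.9 mt-Nd4 reads per 100 mt-Nd5 reads in KO isoproterenol, 70.9 in WT isoproterenol, 61.4 in KO saline and 65.8 in WT saline. mt-Nd6, the 1 mRNA gene on the opposite strand, had 30.6, 25.7, 21.8 and 23.3 reads per 100 of mt-Nd5 in the same order. In each of these ratios to mt-Nd5 the KO isoproterenol library was highest, the WT isoproterenol library next and the KO saline library lowest. By contrast mt-Nd1 per 100 mt-Nd2 was 114 in KO isoproterenol and 115 in WT isoproterenol, against 123 in KO saline and 128 in WT saline.

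**Figure D4:**
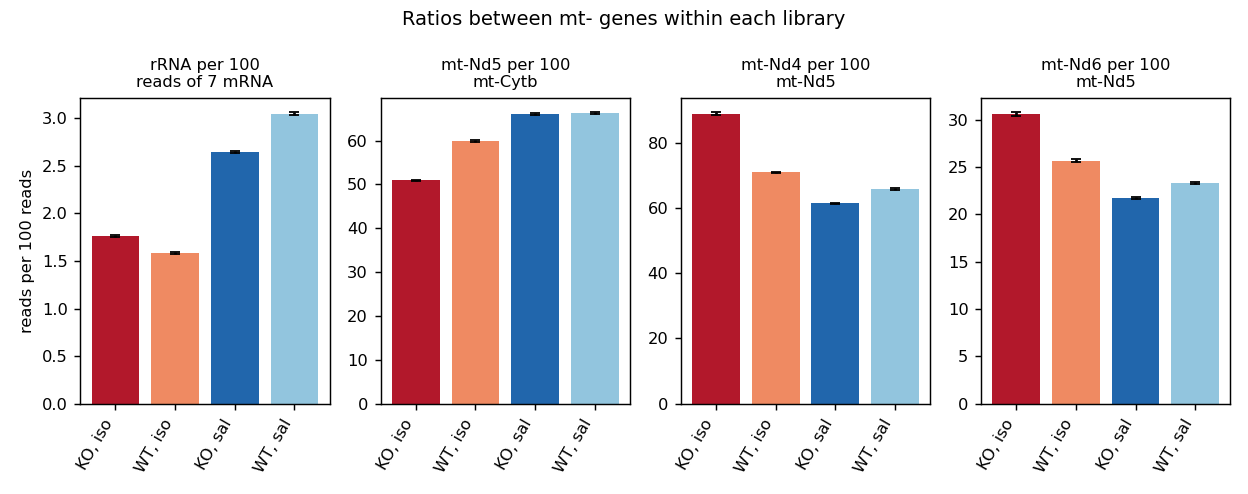
Reads of 1 mitochondrial gene or class per 100 reads of another within each library, with 95% counting intervals; 1 bar per library. rRNA per mRNA and mt-Nd5 per mt-Cytb are lower in both isoproterenol libraries, and mt-Nd4 and mt-Nd6 per mt-Nd5 are highest in KO isoproterenol, at 88.9 and 30.6 reads per 100.

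As shares of all mitochondrial mRNA reads, mt-Co1 took 39.6% in KO isoproterenol, 40.5% in WT isoproterenol, 39.3% in KO saline and 39.6% in WT saline. mt-Cytb took 18.5%, 18.0%, 17.7% and 17.2% in the same order. Among the 7 genes not wholly inside the copied stretch, the widest relative range was that of mt-Nd5, at 9.40% in KO isoproterenol, 10.8% in WT isoproterenol, 11.7% in KO saline and 11.4% in WT saline. mt-Nd4 took 8.35% in KO isoproterenol and 7.66%, 7.19% and 7.49% in the other libraries. The other genes of these 7 were closer across libraries, with mt-Nd2 at 9.35% to 9.93%, mt-Nd1 at 10.8% to 12.1% and mt-Nd6 at 2.55% to 2.87%.

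The 6 mRNA genes inside the copied stretch went with treatment and genotype in another order than the 7 others. mt-Co2, the subunit of complex IV that receives electrons from cytochrome c, had 33.7 CPM in KO isoproterenol, 64.4 in WT isoproterenol, 65.7 in KO saline and 82.4 in WT saline. mt-Co3, a subunit of the same complex, had 32.3, 69.6, 57.2 and 82.0 CPM in that order, and mt-Atp6, the proton channel subunit of ATP synthase, 17.0, 32.2, 29.4 and 37.7 CPM. For all 6 genes the KO isoproterenol library was lowest and the WT saline library highest. In KO, isoproterenol against saline, mt-Co2 fell by 2.21-fold (2.01 to 2.43), mt-Co3 by 2.01-fold (1.82 to 2.21), mt-Atp6 by 1.96-fold (1.72 to 2.25) and mt-Nd4l by 2.84-fold (1.92 to 4.38). The interval of mt-Atp8 ran from 1.47-fold to 2.77-fold lower and that of mt-Nd3 from 1.38-fold to 2.52-fold lower, and neither passed the rule. In WT the median log2 ratio of the 6 genes was -0.20, against 0.35 for the 7 others, and 0 were called. Between the isoproterenol libraries, KO against WT, the 6 genes had a median of -1.14 and all 6 were called lower, and between the saline libraries a median of -0.35 with 0 called. As reads per 100 reads of the 7 other mRNA genes they came to 0.0415 in KO isoproterenol, 0.0645 in WT isoproterenol, 0.0657 in KO saline and 0.0930 in WT saline.

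The pseudogenes of 5 of these genes also had reads, at shares that differed between pairs. Gm10925 held 55.1% of the reads of the pair it forms with mt-Atp6 in KO isoproterenol, 52.3% in WT isoproterenol, 48.5% in KO saline and 45.8% in WT saline. Gm10222 held 56.0%, 43.9%, 52.1% and 49.7% of its pair with mt-Nd4l. In the pairs of mt-Co2 and mt-Co3 the copies on chromosome 1 held 20.3% to 24.9% and 26.3% to 29.3%. The pair of mt-Nd3 varied more, with Gm28438 at 30.6% in KO isoproterenol (30 reads), 19.5% in WT isoproterenol (32 reads), 11.7% in KO saline (18 reads) and 15.2% in WT saline (36 reads). Gm29216, the copy of the last part of mt-Co1, had 24.8 CPM in KO isoproterenol, 48.8 in WT isoproterenol, 52.9 in KO saline and 63.2 in WT saline. It fell by 2.42-fold (2.18 to 2.70) in the KO pair and was 1.22-fold lower (1.13 to 1.33) in the WT pair, where mt-Co1 itself was 1.27-fold higher. Gm28439, the copy of the first part of mt-Nd4, fell by 2.12-fold (1.83 to 2.46) in the KO pair, where mt-Nd4 was 1.13-fold lower. These 2 pseudogenes thus had ratios nearer to those of the uncertain genes than to those of the genes they copy. Copies on chromosome 2 also had reads. Gm13341 shared 35.3% of the windows of mt-Co2. It had 23.7 CPM in KO isoproterenol, 36.7 in WT isoproterenol, 29.7 in KO saline and 37.0 in WT saline. Gm13340 shared 27.5% of the windows of mt-Co1 and had 77.1, 129, 105 and 140 CPM in that order. Each had more reads than the chromosome 1 copy of its gene in every library. When the reads of nuclear copies were added to the mitochondrial genes, mt-Nd3 lost its call between the isoproterenol libraries and mt-Nd4l its call in the difference, and mt-Atp6 in WT moved to a log2 ratio of 0.04.

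Transfer RNAs carry amino acids to the ribosome, and the 22 mitochondrial ones are 59 to 75 bases long in the annotation and have no poly(A) tail. Of the 22, 16 had 0 reads in every library and 4 (mt-Tl1, mt-Tq, mt-Tm and mt-Te) had at most 11 reads in any library. The 2 that passed the filter are both encoded on the minus strand and are printed whole because they are the tRNA genes with values. Sequences are GRCm38 from the GENCODE transcripts, 5′ to 3′.
mt-Tp, chrM:15356-15422, minus strand: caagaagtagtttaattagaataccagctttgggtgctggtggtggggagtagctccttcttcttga
mt-Tc, chrM:5192-5257, minus strand: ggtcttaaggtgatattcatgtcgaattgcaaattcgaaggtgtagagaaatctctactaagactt
mt-Tp, the proline tRNA, had 181 CPM in KO isoproterenol, 188 in WT isoproterenol, 210 in KO saline and 200 in WT saline. It was 1.31-fold lower (1.26 to 1.37) in the KO pair, and in the WT pair its log2 ratio was -0.01 (-0.07 to 0.05). mt-Tc, the cysteine tRNA, had 40 reads in KO isoproterenol, 82 in WT isoproterenol, 136 in KO saline and 140 in WT saline. It fell by 3.13-fold (2.20 to 4.61) in KO. In WT it was 1.30-fold lower with an interval that held 1 (0.987 to 1.74), and the difference of both responses was called at -1.26 (-1.90 to -0.62). Both isoproterenol libraries were below both saline libraries for each of these tRNA genes, an order that was not counted over all genes tested. Whether their reads came from tRNA or from uncut precursors cannot be read from totals per gene.

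Nuclear subunits of the same complexes were set beside the mitochondrial ones, from lists made with earlier results of these data known. In the KO pair the nuclear genes listed for complex I had a median log2 ratio of -0.44 over 18 genes, those of complex III -0.24 over 9, those of complex IV -0.43 over 11 and those of ATP synthase -0.29 over 15. The complex I list includes Ndufa4, since reassigned to complex IV, at -0.19 in the KO pair and 0.11 in the WT pair. The mitochondrial genes not wholly inside the copied stretch stood at a median of -0.35 for complex I, at -0.34 for mt-Cytb of complex III and at -0.39 for mt-Co1 of complex IV. In KO the mitochondrial values thus lay within the range of their nuclear partners, apart from mt-Nd5, which was just beyond the lowest nuclear subunit of complex I. Of the nuclear subunits, 3 were called lower there: Cox5a by 2.20-fold (2.11 to 2.29), the heart and muscle isoform Cox6a2 by 1.85-fold (1.81 to 1.90) and Ndufa1 by 1.63-fold (1.54 to 1.73). These are 3 of 53 listed subunits, a share near the 4.22% called lower of all genes tested. In the WT pair the nuclear medians were 0.00, 0.19, 0.04 and 0.09 for the 4 complexes with 0 called, while the mitochondrial values were 0.30 for complex I, 0.39 for mt-Cytb and 0.35 for mt-Co1. There mt-Cytb and mt-Co1 lay above every listed nuclear subunit of their complex, the highest of which were Uqcrh at 0.24 and Cox6b1 at 0.23. With total-count scaling the WT medians of nuclear complex I and IV turned to -0.08 and -0.04. Between the isoproterenol libraries, KO against WT, the nuclear medians were -0.46, -0.38, -0.44 and -0.41, and Cox7a1 (log2 ratio -0.76) and Ndufb8 (log2 ratio -0.65) were called lower. In the difference of responses 2 of the 53 were called, Cox5a at -0.95 and Cox7a1 at -0.70, against 1.73% called lower of all genes tested. Between the saline libraries the medians were -0.05, -0.02, -0.00 and -0.03, with 0 called. Summed over the 7 mRNA genes and the 53 nuclear subunits, mitochondrial CPM per nuclear CPM was 7.59 in KO isoproterenol, 8.27 in WT isoproterenol, 7.84 in KO saline and 7.04 in WT saline.

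**Figure D5:**
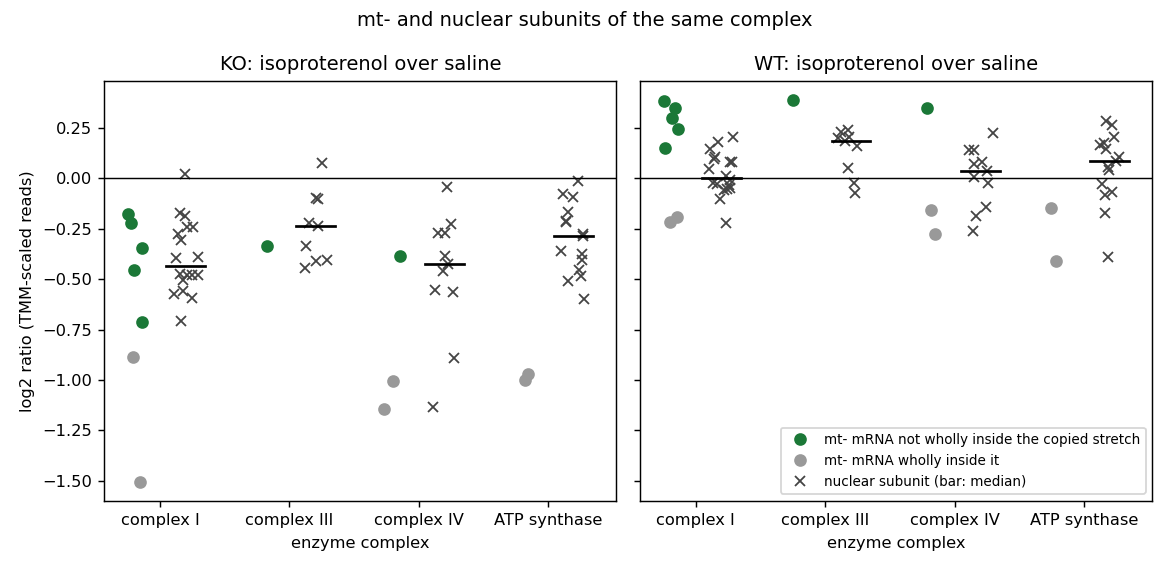
Log2 ratio of isoproterenol over saline for mitochondrial mRNA genes (green, or grey where wholly inside the copied stretch) and nuclear subunits (crosses, bar at the median) of the same complexes, in KO (left) and WT (right). Ndufa4, since reassigned to complex IV, is drawn with complex I. Nuclear medians are -0.24 to -0.44 in KO and 0.00 to 0.19 in WT, where the green points lie at 0.15 to 0.39; with total-count scaling the nuclear medians of complex I and IV in WT are -0.08 and -0.04.

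Nuclear genes that make and process mitochondrial RNA were counted in 4 lists, and their calls, all in the KO pair, are to be read against the 4.22% of all genes tested that were called lower there. Of 20 genes for mitochondrial transcription and DNA maintenance, such as the polymerase Polrmt and the DNA-packaging factor Tfam, 0 were called in any of the 5 comparisons. Their median was -0.25 in the KO pair and 0.02 in the WT pair, the WT value turning to -0.06 with total-count scaling. Of 21 genes for RNA processing, stability and turnover, 1 was called, Lrpprc, which binds mitochondrial mRNAs and keeps them stable. It was 1.72-fold lower (1.65 to 1.80) in the KO pair, and the list had a median of -0.32 in KO and -0.04 in WT. Of 13 genes for rRNA modification and ribosome assembly 0 were called, with medians of -0.22 in KO and 0.07 in WT, the WT value turning to -0.01 with total-count scaling. Of 12 regulators of mitochondrial biogenesis 1 was called, the nuclear receptor Esrrb, 1.81-fold lower (1.60 to 2.04) in the KO pair, with medians of -0.27 and -0.06. The calls of Lrpprc, Esrrb and Ndufa1 were lost with total-count scaling.

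Marker genes of cell types, including atrial, skeletal muscle and adipocyte markers, also differed between these libraries. Their calls are to be read against those over all genes tested. These were 7.09% higher and 4.22% lower in the KO pair, and 0.86% higher and 0.797% lower in the WT pair. The 10 cardiomyocyte markers summed to 66470 CPM in KO isoproterenol, 75105 in WT isoproterenol, 78402 in KO saline and 78980 in WT saline. In the KO pair 4 of 10 were called lower (Myl2, Myl3, Tnni3 and Myh6, median over the list -0.37), and in the WT pair 0 (median 0.07). The 10 fibroblast markers summed to 9896, 4445, 2791 and 3326 CPM in the same order of libraries, with 6 called higher and 1 lower in the KO pair and 4 higher in the WT pair. The 12 macrophage markers summed to 1137, 508, 478 and 529 CPM, with 9 higher in KO and 1 in WT. The 10 endothelial markers summed to 1110 to 1197 CPM, with 0 called in either pair. Smooth muscle and pericyte markers summed to 1125 to 1328 CPM (2 of 8 higher in KO), lymphocyte markers to 13.4 to 22.5 CPM and erythroid markers to 216 to 359 CPM (0 called in either pair), and atrial markers to 150 to 266 CPM (3 of 6 higher in KO and 1 in WT). Of the atrial markers, Bmp10 had 1 read (0.0435 CPM) in KO saline. Bmp10 and Myl4 were called lower in KO saline than in WT saline, against 0.217% called lower of all genes tested. Skeletal muscle markers summed to 752 to 1236 CPM, nearly all from Ckm, which the heart also expresses, with the defining Myh4 at 0 in every library (1 of 3 tested higher and 1 lower in KO). Adipocyte markers summed to 396 to 493 CPM (1 of 6 tested higher in WT), nearly all from Fabp4 at 387 to 476 CPM. The others were at most 7.49 CPM each. Between the isoproterenol libraries, KO against WT, Plin1, Cidec and Pck1 were called lower and no other tested adipocyte marker was called. Of all genes tested, 1.8% were called lower there. The 7 mRNA genes held 3.32 CPM per CPM of cardiomyocyte markers in KO isoproterenol, 3.78 in WT isoproterenol, 3.27 in KO saline and 3.05 in WT saline. On that measure KO isoproterenol and KO saline were close, and the WT isoproterenol library stood above all others. Myh6, itself called lower in the KO pair, was the largest part of the marker sum in each library. It had 22219 CPM in KO isoproterenol and 29949 in KO saline, so the measure is not a level per cardiomyocyte. The part of cell mixture in the lower mitochondrial mRNA of the KO isoproterenol library was not tested.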

How the data were processed

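Messenger RNA libraries of 4 groups, 1 library each, were sequenced, and the authors deposited 1 table of CPM per Ensembl gene. HTSeq did the counting and GRCm38.p4 (mm10) was the build, per the submitters' processing notes. Which aligner and annotation release were used, and how HTSeq treated strand, overlapping genes and reads with several matches, is not given in the sources used here. A column whose heading names a genotype and no treatment was read as saline. The deposited CPM values are whole multiples of 1 read (0.0533 CPM in KO isoproterenol, 0.0483 in WT isoproterenol, 0.0435 in KO saline and 0.0390 in WT saline), so 100% of values were returned to whole reads within 0.01 reads.

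Ratios of these reads between libraries were scaled by TMM (edgeR 4.0.16; factors 1.096, 0.946, 0.966 and 0.999 in the same order), with 0.5 added to each count and an exact conditional (Clopper-Pearson) 95% interval. Shares have exact binomial intervals. Intervals cover counting error only: the reads carry no molecular identifiers, so they are not independent molecules. A gene was called where its whole interval lay beyond 1.5-fold. The difference of responses has an interval from the 4 counts by the delta method. The additive fit used limma 3.58.1 with trend on log2(CPM + 1) under R 4.3.3, adjusted by Benjamini-Hochberg at 0.05, because the deposited unit is CPM. On recovered reads, the quasi-likelihood test of edgeR called 22 genes by treatment and 3 by genotype, and DESeq2 1.42.0 was a further alternative. The p-values rest on 1 residual degree of freedom and on libraries whose independence is not stated.

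All 37 member IDs were found in GENCODE M21 (GRCm38), which may differ from the annotation of the authors. Copies were found as exact 50-base windows shared with annotated nuclear transcripts, and a copy in unannotated sequence would be missed. Gene length is the annotated length. The intervals were run on counts simulated with counting error alone. The limma fit was run on counts simulated with added variation and no interaction. Neither run measures variation between hearts. Members, lists, tests and alternatives were chosen with earlier results of these data known. All mRNA and rRNA members are named, tRNA members in full where they passed the filter, then the annotated copies on chromosome 1, P2ry6, and up to 4 called members of each list. Polrmt, Tfam, Uqcrh, Cox6b1, Ndufa4, Ckm, Myh4, Fabp4, Gm13340 and Gm13341 were named outside that rule, with their values seen.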

Additional observations from a re-analysis of the deposited data

Results flagged for a closer look

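For 7 members the KO and WT libraries stood on opposite sides of no change in their isoproterenol response, lower than saline in KO and higher than saline in WT. Over all genes tested the interval lay below 1 for 27.6% in the KO pair and above 1 for 15.3% in the WT pair. The share of genes that met both was not counted. The difference of the log2 ratios, KO minus WT, was -0.96 for mt-Nd5, -0.74 for mt-Co1, -0.72 for mt-Cytb, -0.65 for mt-Nd2, -0.61 for mt-Nd1, -0.60 for mt-Nd6 and -0.53 for mt-Nd4. With 1 library per group the difference was not tested. With total-count scaling 6 of the 7 still lay on opposite sides, and mt-Nd4 stood at 0.00 in KO.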

How the results depend on the processing

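No paired analysis was possible because the labels number no replicates and each group held 1 library, and for the same reason no library could be left out. With mt- genes left out of the scaling, or with DESeq2 size factors, the counts of members called were those of TMM. With total-count scaling the number called lower was 7 in the KO pair (8 with TMM), 2 in the WT pair (1), 4 between the isoproterenol libraries (8) and 1 in the difference of responses (11). With a 2-fold threshold it was 2, 0, 3 and 0 in that order. The mitochondrial share of a library by mRNA alone was 22.1% in KO isoproterenol, 28.4% in WT isoproterenol, 25.6% in KO saline and 24.1% in WT saline, and without genes of high-identity copies it was 24.8% in WT saline. By treatment the additive fit called 368 genes and 1 member, against 492 and 2 with log2(CPM + 0.5), 1 and 0 with TMM-scaled CPM, 965 and 2 without the filter on low values, 22 and 0 with edgeR, and 174 and 2 with DESeq2. By genotype it called 14 genes and 0 members, against 22 and 0 with log2(CPM + 0.5), 0 and 0 with TMM-scaled CPM, 195 and 2 without the filter, 3 and 0 with edgeR, and 13 and 0 with DESeq2. The limma adjusted p of mt-Rnr1 by treatment ran from 0.0132 with log2(CPM + 0.5) to 0.319 with TMM-scaled CPM. No result changed sign among called values. Depth limits mt-Nd4l, mt-Nd3, mt-Atp8 and mt-Tc, with 33 to 214 reads.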
